A study of Mus musculus with 6 samples.

Results

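The genes of metallothioneins and zinc handling were compared between hearts of TNFαDes-/- and Des-/- mice. They were chosen by symbol, with earlier results of these data known. The set holds the metallothioneins Mt1, Mt2 and Mt3, the zinc-sensing transcription factor Mtf1, the zinc exporter Slc30a1 and the zinc importers Slc39a8 and Slc39a14. All 7 were measured, among 18193 genes with a symbol, on 17 of the 34945 probe sets that carry 1 symbol. For each gene the brightest probe set, averaged over the 6 arrays, gives the main value, and every other probe set is given as well.

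Hearts were taken at an age of 3 months, and their total RNA was hybridised to one-colour arrays of short oligonucleotides, 3 for each of 2 genotypes. Mice of both genotypes lacked desmin, the main intermediate filament of heart muscle. The Des-/- mice were of strain 129SV, and the TNFαDes-/- mice also overexpressed the inflammatory cytokine TNF-α in the heart and were of a mixed 129SV/C57 background. Strain and transgene therefore cannot be told apart, and with no desmin-positive hearts among the groups no level can be called normal or abnormal. Which promoter drives the transgene is not stated in the labels. Per the labels, RNA from 3 hearts of a genotype was pooled before labelling, so the arrays of a group may repeat 1 pool, and each p-value measures only the spread between these arrays. The probe set of Tnf itself differed little, at 0.07 ± 0.12 on the log2 scale (SE; limma adjusted p = 0.746), so it gives no check of the labels. No detection calls were used.

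Metallothioneins are small cytosolic proteins rich in cysteine that bind zinc and copper and scavenge oxidants. When free zinc rises in a cell, the zinc finger protein MTF-1, encoded by Mtf1, enters the nucleus and binds metal response elements in the promoters of Mt1, Mt2 and Slc30a1. Slc30a1 encodes ZnT1, which carries zinc out of the cell. Slc39a8 (ZIP8) and Slc39a14 (ZIP14) encode importers that also carry manganese and iron. Mt1 and Mt2 are in addition known targets of glucocorticoids, of interleukin-6 signalling through STAT3, and of oxidative stress.

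The promoter windows of the metallothioneins and of Slc30a1 are shown because each held at least 1 match to the core of the metal response element. Slc30a1 did not rise with the metallothioneins. At least 1 match was also found in 25.7% of all windows, so the 1 match of Mt3 does not show a working element. Each window holds 250 bases before and 50 bases after a start site of the RefSeq annotation (build GRCm38.p6), on the + strand, with matches to the core of the element (TGCACNC or TGCGCNC, either strand) in capitals. The windows are chr8:94178839-94179138 for Mt1, chr8:94172368-94172667 for Mt2, chr8:94152357-94152656 for Mt3 and chr1:191906531-191906830 for Slc30a1.
Mt1: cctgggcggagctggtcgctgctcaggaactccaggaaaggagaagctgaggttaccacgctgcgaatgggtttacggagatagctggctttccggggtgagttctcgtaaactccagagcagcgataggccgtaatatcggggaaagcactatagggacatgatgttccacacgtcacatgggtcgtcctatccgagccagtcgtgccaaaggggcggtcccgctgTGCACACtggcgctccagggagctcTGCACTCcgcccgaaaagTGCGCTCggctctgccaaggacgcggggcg
Mt2: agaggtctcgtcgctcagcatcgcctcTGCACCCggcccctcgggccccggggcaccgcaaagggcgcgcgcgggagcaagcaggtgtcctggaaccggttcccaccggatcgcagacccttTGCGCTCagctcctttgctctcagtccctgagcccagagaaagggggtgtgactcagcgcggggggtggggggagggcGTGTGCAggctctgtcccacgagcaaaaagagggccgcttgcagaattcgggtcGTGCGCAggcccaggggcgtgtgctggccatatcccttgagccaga
Mt3: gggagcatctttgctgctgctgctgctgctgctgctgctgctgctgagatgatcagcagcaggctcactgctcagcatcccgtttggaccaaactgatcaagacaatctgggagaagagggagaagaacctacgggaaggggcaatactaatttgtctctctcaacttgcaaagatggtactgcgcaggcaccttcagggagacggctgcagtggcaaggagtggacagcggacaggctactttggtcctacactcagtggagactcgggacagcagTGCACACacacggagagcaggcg
Slc30a1: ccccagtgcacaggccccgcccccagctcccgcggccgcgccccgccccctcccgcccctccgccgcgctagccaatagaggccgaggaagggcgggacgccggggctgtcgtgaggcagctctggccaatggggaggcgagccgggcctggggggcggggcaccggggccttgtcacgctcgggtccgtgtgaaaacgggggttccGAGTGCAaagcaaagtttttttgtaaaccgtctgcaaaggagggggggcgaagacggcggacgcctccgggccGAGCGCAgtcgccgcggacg

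Of the 7 members, 6 had a window in the RefSeq table, and Slc39a14 did not. The Mt2 window held 4 matches to the metal response element, the Mt1 window 3, the Slc30a1 window 2 and the Mt3 window 1. Of the 2 windows of Slc39a8, 1 held a match, and the Mtf1 window held 0. Among 32851 windows of this length, 25.7% held at least 1 match, 7.11% at least 2, 1.97% at least 3 and 0.517% at least 4. In the Mt1 window the matches began at -23, +3 and +21 from the start site, and in the Mt2 window at -223, -128, -50 and +5. The annotated genes of Mt1 and Slc30a1 begin before the start sites used (94178883 against 94179089, and 191906697 against 191906781). That of Slc39a8 begins still farther before its 2 start sites (135816882 against 135825279 and 135825657). Positions and counts therefore hold for the windows shown alone. The antioxidant response element (core TGACNNNGC, either strand), which binds NRF2, had 1 match in the Mt2 window, beginning at -79, 1 in the Slc30a1 window, at -82, and 1 in a Slc39a8 window, at -35. It had 0 in the windows of Mt1, Mt3 and Mtf1, and 12.4% of all windows held at least 1. Sequence outside the windows was not searched, so a count of 0 does not show that a promoter lacks an element. Within each window 0 matches overlapped. These are matches of letters in a short window and show no binding.

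Of the 7 members, 5 passed the test between groups (limma, adjusted p under 0.05 over all 18193 genes), 4 higher and 1 lower in TNFαDes-/- hearts. Over all genes 15.2% were called higher and 6.05% lower, 21.3% in all. The groups did not overlap on the main probe set of any of the 7 members, 5 higher and 2 lower. Over all genes such separation was seen for 38.0%, with 24.3% higher and 13.7% lower. The 3 metallothioneins and Slc39a14 rose, Slc39a8 fell, and Mtf1 and Slc30a1 did not pass. Values below are on the log2 scale of the deposited intensities, and each change is TNFαDes-/- minus Des-/-.

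Mt2 showed the largest change of the set, 3.61-fold higher in TNFαDes-/- hearts. Its level was 11.09, 10.89 and 10.82 on the Des-/- arrays (replicates 1 to 3) and 12.83, 12.69 and 12.85 on the TNFαDes-/- arrays. The gap between the groups was far wider than the spread within either. The means were 10.94 ± 0.14 and 12.79 ± 0.09 (SD, n = 3), a change of 1.85 ± 0.11 (SE; limma adjusted p = 2.8e-05). As deposited, 45 of the 18193 genes had a larger rise, and 1.95% both passed and rose at least 2-fold, as Mt1 and Mt2 did. Once all arrays were forced onto 1 distribution (quantile normalization), Mt2 was at 1.47 and Mt1, at 0.69, was below 2-fold. Mt2 has 1 probe set, so no second probe set checks this value.

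Mt1 rose 2.06-fold (95% interval 1.62 to 2.62). The interval does not cover the choice of scaling: with cyclic loess the log2 change was 0.60, below the lower end of 0.69. Its main probe set read 13.16, 12.66 and 12.57 on the Des-/- arrays and 13.81, 13.88 and 13.83 on the TNFαDes-/- arrays. Des-/- replicate 1 lay above replicates 2 and 3 but below each TNFαDes-/- array. The means were 12.80 ± 0.32 and 13.84 ± 0.04 (SD, n = 3), a change of 1.04 ± 0.15 (SE; limma adjusted p = 0.00231). This probe set was brighter than at least 99.6% of probe sets on every array, where the highest readings were 14.20 to 15.04. Its name ends in _s_at, the manufacturer's mark for probes that can match more than 1 transcript.

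The other Mt1 probe set, far dimmer, moved by about as much. It read 5.45, 5.79 and 5.84 on the Des-/- arrays and 6.81, 6.66 and 7.16 on the TNFαDes-/- arrays, a change of 1.18 ± 0.16 (SE; limma adjusted p = 0.00222 over all probe sets). Both probe sets of Mt1 thus rose with groups that did not overlap. Des-/- replicate 1 was the highest of its group on the bright probe set and the lowest on the dim probe set.

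Mt2 and Mt1 changed by unequal amounts within the same arrays, a comparison chosen after the values were seen. The Mt2 reading minus the Mt1 reading was -2.07, -1.77 and -1.74 on the Des-/- arrays and -0.98, -1.20 and -0.98 on the TNFαDes-/- arrays, a shift of 0.81. The groups did not overlap, and the exact two-sided permutation p was 0.1, the smallest that 3 arrays against 3 allow. The shift was 0.78 after quantile normalization, which forces all arrays onto 1 distribution. How far the brightness of the Mt1 probe set enters this shift was not tested.

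Mt3, a metallothionein best known from the brain, also rose. It read 5.75, 5.74 and 5.71 on the Des-/- arrays and 6.45, 6.57 and 6.49 on the TNFαDes-/- arrays. The spread within each group was small beside the gap. The change was 0.77 ± 0.09 (SE; limma adjusted p = 0.000872). These readings lay above the median of each array (5.02 to 5.08) but no detection call places them above background, so no fold is given. Of 7 astrocyte and neuron markers 0 passed in either direction, against 21.3% of all genes. Changes of the 7 markers ran from -0.29 (Rbfox3) to 0.22 (Slc1a2). Their summed linear intensity was 284 to 315 on Des-/- and 250.4 to 305 on TNFαDes-/- arrays. Snap25 and Syt1 were above no array median, so their levels say little. Averaged over probe sets, 0 rose and 2 fell, Aqp4 (-0.60) and Stmn2 (-0.44).

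**Figure D1:**
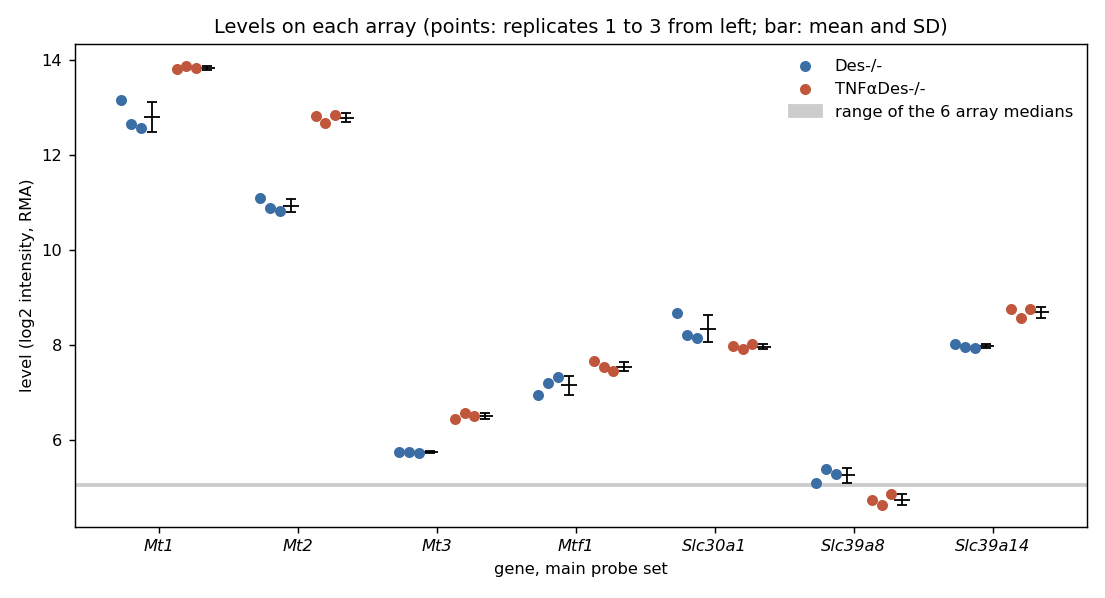
Log2 level of the main probe set of each member on each array, by genotype, with the mean and SD at the right of each group and the range of array medians as a grey band. The groups are separate for all 7 members, widest for Mt2, and Slc39a8 lies at the array medians.

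Mtf1, the zinc sensor, did not pass. Its main probe set read 6.93, 7.19 and 7.33 on the Des-/- arrays and 7.65, 7.54 and 7.44 on the TNFαDes-/- arrays. The groups did not overlap, but the nearest arrays lay close. The change was 0.39 ± 0.12 (SE; limma adjusted p = 0.0557; 95% interval 0.11 to 0.68). It passed with array weights (0.36, adjusted p = 0.00825), a filter on dim probe sets (0.0468) and median centring (0.0457), but was 0.27 (adjusted p = 0.253) after quantile normalization.

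The 5 probe sets of Mtf1 disagreed in sign, with 3 changes above and 2 below zero, and 0 passed over all probe sets. The second brightest ranged from 6.24 to 7.0 on Des-/- and from 6.62 to 7.19 on TNFαDes-/- arrays (0.33 ± 0.21, SE). The others gave -0.19, -0.12 and 0.03, and the last 2 of these were above no array median. Averaged over its probe sets, Mtf1 changed by 0.09 (limma adjusted p = 0.472).

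Slc30a1, the exporter that MTF-1 is known to induce, did not rise with the metallothioneins. Its main probe set read 8.67, 8.20 and 8.15 on the Des-/- arrays and 7.97, 7.91 and 8.01 on the TNFαDes-/- arrays. Each TNFαDes-/- array was lower than each Des-/- array, and Des-/- replicate 1 stood well above the rest. The change was -0.38 ± 0.14 (SE; 95% interval -0.71 to -0.05), which did not pass (limma adjusted p = 0.1). After quantile normalization it passed, at -0.53 (adjusted p = 0.00451), as it did with cyclic loess, at -0.55 (0.00579). Without Des-/- replicate 1 the change was -0.21 (adjusted p = 0.103). The second probe set gave -0.10 ± 0.11 (adjusted p = 0.605 over all probe sets), with overlapping groups.

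Slc39a8, the importer ZIP8, was lower in TNFαDes-/- hearts. It read 5.08, 5.39 and 5.27 on the Des-/- arrays and 4.73, 4.63 and 4.85 on the TNFαDes-/- arrays, a change of -0.51 ± 0.12 (SE; limma adjusted p = 0.0153). The Des-/- readings lay just above the array medians and the TNFαDes-/- readings below them, so no fold is given. The second probe set, below the median of every array, gave -0.42 ± 0.17 (adjusted p = 0.126 over all probe sets). The call ended without Des-/- replicate 2 (adjusted p = 0.0682), Des-/- replicate 3 (0.0584) or TNFαDes-/- replicate 1 (0.0622).

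Slc39a14, the importer ZIP14, rose on its main probe set and on no other. The main probe set read 8.02, 7.96 and 7.94 on the Des-/- arrays and 8.75, 8.56 and 8.76 on the TNFαDes-/- arrays. It was 1.64-fold higher, a change of 0.71 ± 0.10 (SE; limma adjusted p = 0.0018), with groups well apart. The second probe set ran the other way, at 6.23, 6.66 and 6.71 on Des-/- and 5.43, 6.16 and 6.03 on TNFαDes-/- arrays (-0.66 ± 0.21, SE; adjusted p = 0.0642 over all probe sets). The third gave -0.31 ± 0.11 (adjusted p = 0.0789) and the dimmest -0.05 ± 0.11 (0.794).

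The opposite signs of the Slc39a14 probe sets show directly within arrays. The main reading minus the second was 1.79, 1.30 and 1.23 on the Des-/- arrays and 3.32, 2.39 and 2.73 on the TNFαDes-/- arrays. The shift was 1.37, with groups that did not overlap (exact two-sided permutation p = 0.1, the smallest this design allows), and it was chosen after the values were seen. Averaged over its 4 probe sets, Slc39a14 changed by -0.077 (limma adjusted p = 0.604), so its direction rests on the choice of probe set. Where in the transcript these probes lie was not analysed here.

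**Figure D2:**
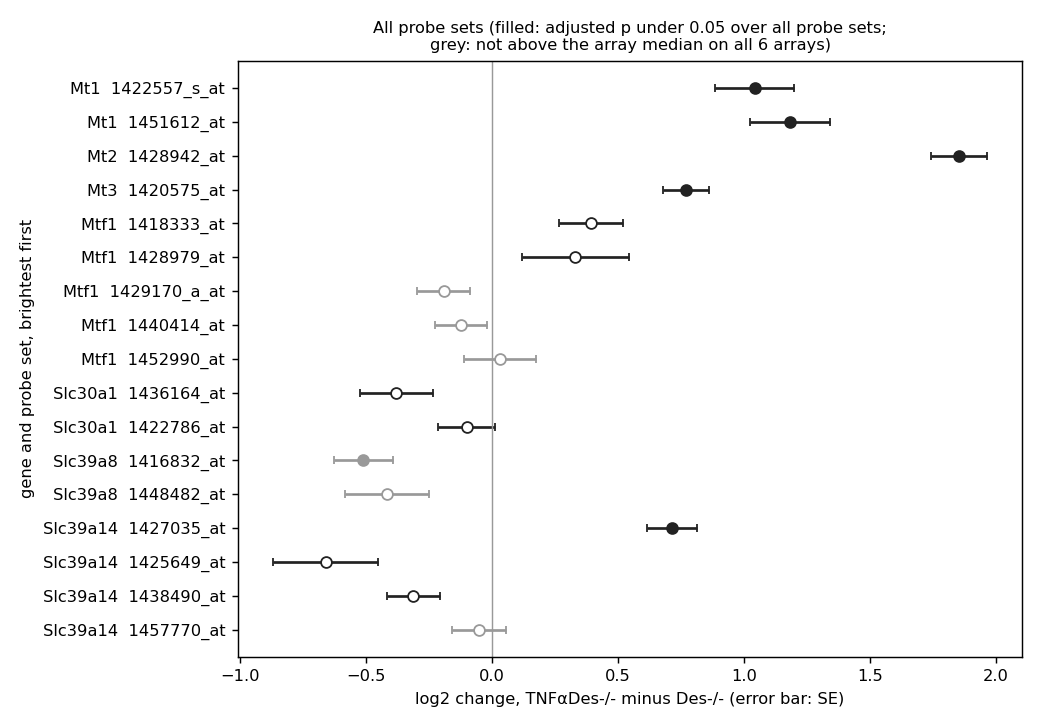
Log2 change (TNFαDes-/- minus Des-/-) with its SE for the 17 probe sets of the members; filled points passed over all probe sets (6 of 17) and grey ones were not above the array median on all 6 arrays. Both Mt1 probe sets lie right of zero, while the 4 of Slc39a14 split 1 against 3.

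Over all probe sets with 1 symbol, 11.7% were called higher and 5.62% lower; of the 17 here, 6 passed, 5 higher and 1 lower. The calls for Mt1, Mt2 and Mt3 held under each of the 19 alternative settings. After quantile normalization Mt2 was at 1.47 (limma adjusted p = 6.41e-05), Mt1 at 0.69 (0.000561), Mt3 at 0.75 (0.000609), Slc39a14 at 0.55 (0.00271) and Slc39a8 at -0.50 (0.0139). Under that scaling 12.0% of all genes were called higher and 10.4% lower. The brightest 3639 genes, which include Mt1 and Mt2, had a median change of 0.27 as deposited and 0.02 after quantile normalization, against 0.04 and -0.0038 over all genes. Higher genes made up 71.5% of all calls as deposited, 53.6% after quantile normalization and 51.8% with cyclic loess.

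The metallothionein genes lie side by side on chromosome 8 in the order Mt4, Mt3, Mt2, Mt1 (GRCm38.p6). Mt4, a metallothionein of stratified epithelia, read 3.46 to 3.65 over the 6 arrays and changed by 0.01 ± 0.10 (SE; limma adjusted p = 0.976), and no array had it above its median. Of the 6 nearest measured genes, 3 on each side, 2 were higher and 0 lower, against 15.2% and 6.05% of all genes. Nudt21, a factor of messenger RNA cleavage, rose by 0.63 ± 0.13 and the nuclear pore gene Nup93 by 0.54 ± 0.10 (limma adjusted p = 0.011 and 0.00714). Bbs2 (0.34), Ogfod1 (-0.24), a probe set annotated to Mir138-2 (-0.29), which lies within Nup93, and the salt transporter Slc12a3 (-0.02) did not pass.

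Across the 14 zinc importers of the ZIP family, 6 rose and 2 fell (median change 0.08, against 0.04 over all genes). Over all genes, 15.2% were called higher and 6.05% lower. The largest rises were those of Slc39a6, a plasma membrane importer, and Slc39a7, which releases zinc from the endoplasmic reticulum. Slc39a6 rose from 5.93 ± 0.17 to 6.96 ± 0.29 (SD, n = 3), by 1.03 ± 0.16 (SE; limma adjusted p = 0.00277), or by 0.34 averaged over its 4 probe sets. Slc39a7 rose by 0.84 ± 0.11 (adjusted p = 0.00146). Named after their values were seen, Slc39a13 (0.76), Slc39a1 (0.65) and Slc39a11 (0.38) also rose, and Slc39a3 fell by 0.53 on the log2 scale. Another 4 members, Slc39a2, Slc39a4, Slc39a5 and Slc39a12, were never above an array median. Leaving out 1 array gave 4 to 6 rises and 1 or 2 falls.

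Of the 10 exporters of the ZnT family, 1 rose and 0 fell (median 0.06), against 15.2% and 6.05% of all genes. Slc30a4, which loads zinc into vesicles, rose by 0.86 ± 0.17 (SE; limma adjusted p = 0.00856). The lowest value of the family was that of Slc30a1, and after quantile normalization 1 rose and 1 fell.

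Among 10 genes known as targets of MTF-1, 6 rose and 0 fell (median 0.59), against 15.2% and 6.05% of all genes. After quantile normalization 6 rose and 1, Slc30a1, fell (median 0.48), against 12.0% and 10.4% of all genes. Mt1 and Mt2 are members of both sets. Named after their values were seen, the others that rose were the selenoprotein Selenow (1.0 ± 0.10, SE), the glutathione-synthesis gene Gclc (0.96 ± 0.18), the angiogenic factor Pgf (0.61 ± 0.14) and the LIM protein Csrp1 (0.57 ± 0.10). Slc39a10, which MTF-1 represses, stood at 0.06 ± 0.16 and Ndrg1 at 0.02 ± 0.10, and neither passed. Leaving out 1 array gave 5 to 7 rises and 0 falls.

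Genes of the other regulators known to act on metallothioneins were counted in the same way. Of 15 glucocorticoid-responsive genes, 9 rose and 0 fell (median 0.65), against 15.2% and 6.05% of all genes. After quantile normalization the counts were the same (median 0.38), against 12.0% and 10.4% of all genes. The list is bright, with its mean level from 9.71 to 10.67 over the arrays. The brightest 3639 genes had a median change of 0.27 as deposited. The cell cycle inhibitor Cdkn1a rose by 1.49 ± 0.09 and Errfi1, an inhibitor of the EGF receptor, by 1.35 ± 0.13 (SE; limma adjusted p = 4.58e-05 and 0.000294). Cdkn1a also responds to p53 and other stresses. Among the genes that did not pass were Tsc22d3 (0.43 ± 0.22), Klf15 (0.11 ± 0.10) and Zbtb16 (-0.15 ± 0.27). The rises numbered 6 without Des-/- replicate 2, Des-/- replicate 3, TNFαDes-/- replicate 1 or TNFαDes-/- replicate 3, and 13 without Des-/- replicate 1. Quantile normalization without Des-/- replicate 1 gave 11 rises and 2 falls.

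Of 17 genes of STAT3 and the acute phase, 7 rose and 1 fell (median 0.29), against 15.2% and 6.05% of all genes. The transcription factor Cebpd, shared with the glucocorticoid list, rose by 1.33 ± 0.18 and the interleukin-4 receptor Il4ra by 0.88 ± 0.11 (SE; limma adjusted p = 0.00144 and 0.000952). Socs3, the feedback inhibitor of this pathway, stood at 0.28 ± 0.17 and did not pass. The rises numbered 3 without Des-/- replicate 2, Des-/- replicate 3, TNFαDes-/- replicate 1 or TNFαDes-/- replicate 3, 11 without Des-/- replicate 1, and 4 with cyclic loess.

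**Figure D3:**
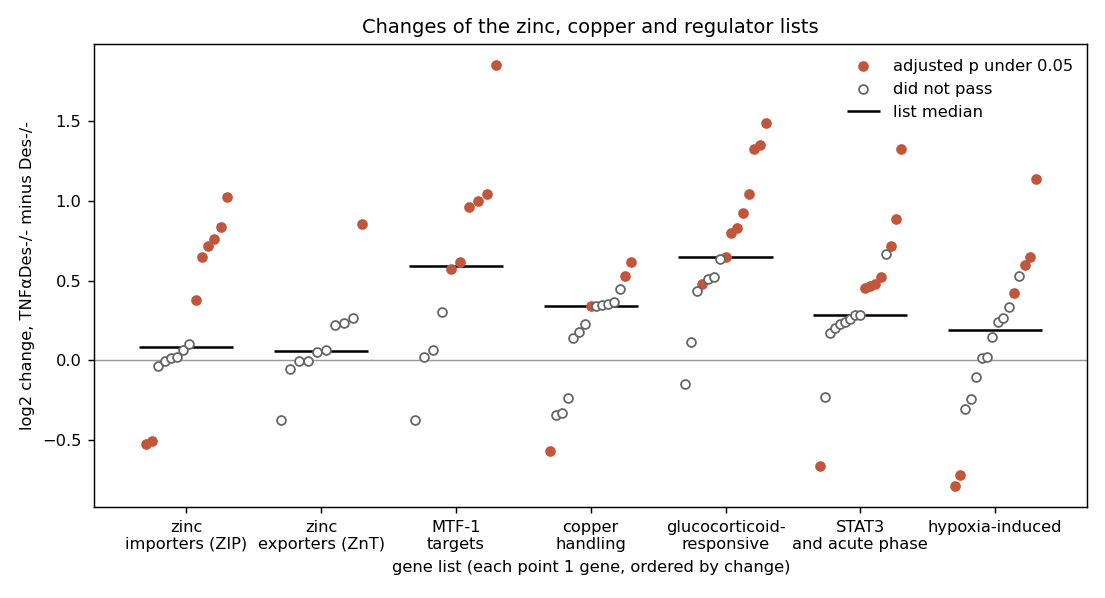
Log2 change of each measured gene in the 7 lists of zinc, copper and regulator genes, ordered within each list, with the list median as a bar; filled points passed the test. Glucocorticoid-responsive genes and MTF-1 targets hold no filled point below zero, and the ZIP family holds filled points on both sides.

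For each member past the test, the genes nearest in pattern were those with the smallest root mean square difference over the 6 arrays after removal of each gene's mean, among 9477 or 9478 candidates with a mean level of at least 6. For Mt2 these were Pgd (0.04), an enzyme of the pentose phosphate pathway, the glutathione transferase Gstm1 (0.07) and the receptor kinase Grk5 (0.07). The Pgd and Gstm1 probe sets end in _x_at, a mark of possible cross-hybridisation. For Mt1 they were the proteasome subunit Sem1 (0.01), Lhfp (0.03) and the secreted protein Dkk3 (0.03). Mt1 and Mt2 were farther from each other (0.42) than Mt3 was from the main probe set of Slc39a14 (0.10). This distance largely repeats the sizes of the changes, 1.04 and 1.85 for Mt1 and Mt2 and 0.77 and 0.71 for Mt3 and Slc39a14. It does not show how closely genes vary together within a group. For Mt3 the nearest were Clptm1l (0.03), Lsp1 (0.03) and the polarity gene Pard3 (0.03). Slc39a14 had Txndc12, Slc38a1 and Mrps18b (0.03 to 0.04), and Slc39a8 had N4bp2, Tbc1d16 and Mmab (0.03 to 0.05). With a step between groups shared by many genes, such nearness describes these 6 arrays alone.

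Markers of several other cell types also moved between the groups, and their part in the changes above was not tested. Over all genes, 15.2% were called higher and 6.05% lower as deposited, and 12.0% and 10.4% after quantile normalization. In whole hearts, fewer cells of a type and less RNA per cell cannot be told apart. Each range below is the summed linear intensity of a marker list, on Des-/- and then on TNFαDes-/- arrays. Such a sum mostly follows the brightest genes of its list and can run against the counts. Of 8 cardiomyocyte markers 0 passed (106325 to 169894 against 158471 to 163092; median log2 change 0.33). That count rests on Des-/- replicate 1: without it 7 of the 8 rose and 0 fell, as with array weights, while after quantile normalization or cyclic loess 0 rose and 2 fell.

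Of 9 macrophage markers 6 rose and 1 fell (7356 to 9701 against 11499 to 11814). The endotoxin co-receptor Cd14 rose by 1.75 ± 0.10 (SE; limma adjusted p = 1.7e-05) and the lysosomal protein Cd68 fell by 1.48 on the log2 scale, so the list did not move as one. The rises numbered 2 without Des-/- replicate 2, Des-/- replicate 3, TNFαDes-/- replicate 1 or TNFαDes-/- replicate 3. Of 7 smooth muscle and pericyte markers 1 rose and 2 fell (7702 to 11444 against 14517 to 15483). The one that rose was Acta2, smooth muscle actin, by 1.89 ± 0.14, while the smooth muscle myosin Myh11 fell by 0.85. Acta2 was the brightest of the list on TNFαDes-/- arrays (mean 13.16) and weighs most in the sum there. Quantile normalization or cyclic loess gave 1 rise and 4 falls, and leaving out TNFαDes-/- replicate 3 gave 1 rise and 1 fall.

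Of 7 fibroblast markers 2, the matrix genes Dcn (0.93) and Col1a2 (0.67), rose and 0 fell (16099 to 24288 against 25316 to 26101). That direction depends on the scaling: 1 rose and 3 fell after quantile normalization, and 1 rose and 2 fell with cyclic loess. Without Des-/- replicate 1, 4 rose. Averaged over its 3 probe sets, Col1a2 changed by 0.26 and did not pass (limma adjusted p = 0.0746). Of 7 endothelial markers 3 fell, led by Egfl7 (-0.65) and Tie1 (-0.57) (3043 to 3877 against 2698 to 2864), and 5 fell with cyclic loess. Of 6 fat markers 3 fell, led by Ucp1 (-1.30) and Adipoq (-1.27) (9031 to 13020 against 8653 to 9329), and 5 fell after quantile normalization or cyclic loess. Of 6 blood cell markers 3 rose and 1 fell (717 to 933 against 1053 to 1194), led by Alas2 of red cell precursors (-1.75) and the platelet gene Pf4 (0.98). Pf4 was the brightest of the list on TNFαDes-/- arrays (mean 9.88) and weighs most in the sum there. S100a8 and S100a9 also rose, but S100a8 was above the array median on 3 of 6 arrays and S100a9 on none. Ppbp, another platelet gene, stood at -0.14 and was above no array median. Of 5 hepatocyte markers 1, Cyp2e1, fell by 0.73 on the log2 scale (612 to 667 against 417 to 457), and 2 fell without Des-/- replicate 1 or without TNFαDes-/- replicate 2. Alb, which encodes albumin of the liver, where metallothioneins are abundant, was above no array median.

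The ratio of 3' to 5' probe sets, a sign of RNA integrity, was -0.05 to 0.01 on Des-/- and 0.28 to 0.34 on TNFαDes-/- arrays for Gapdh (log2), and 0.41 to 0.57 against 0.62 to 0.79 for Actb. Des-/- replicate 1 stood apart from its group: the 99th percentile of its readings was 12.27, against 11.69 and 11.75 on replicates 3 and 2 and 12.26 to 12.31 on the TNFαDes-/- arrays. Without it, on the deposited scale, Mt2 was at 1.93, Mt1 at 1.22, Mt3 at 0.78, Slc39a14 at 0.74 and Slc39a8 at -0.59, and 5 members passed. With quantile normalization of the remaining arrays, Mt2 was at 1.38, Mt1 at 0.68, Mt3 at 0.74, Slc39a14 at 0.50 and Slc39a8 at -0.57, and 6 members passed. The larger values without this array therefore depend on the scaling.

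**Figure D4:**
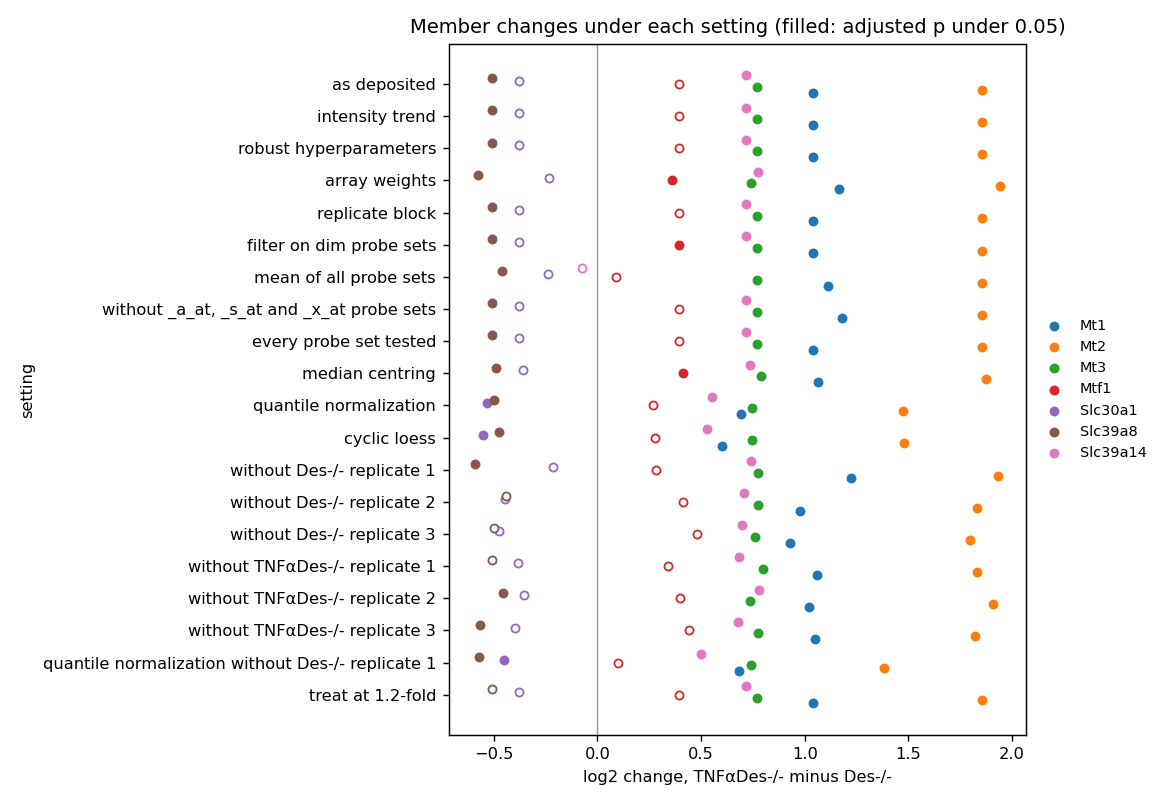
Log2 change (TNFαDes-/- minus Des-/-) of each member as deposited and under the 19 alternative settings; filled points passed the test. Mt1, Mt2 and Mt3 stay right of zero and filled throughout, while Slc39a14 crosses zero when its probe sets are averaged and Slc30a1 is filled only after scaling by quantiles or loess.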

How the data were processed

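The values deposited by the authors are log2 intensities of probe sets, made with RMA (its version is not stated) per the submitters' processing notes. No label says whether all arrays went through 1 quantile step. The deposited values do not share 1 distribution: their 99th percentiles ran from 11.69 to 12.31 and their maxima from 14.20 to 15.04. The table held 45101 probe sets, 64 of them controls; 34945 carried 1 gene symbol in the platform annotation, 932 several and 9160 none, and only the first kind named genes. Groups came from the sample titles.

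Differences were fitted by lmFit and eBayes of limma 3.58.1 (R 4.3.3), with Benjamini-Hochberg adjustment over all 18193 genes, or over all 34945 probe sets where stated, and a threshold of 0.05. The fit was tested on simulated data. Alternatives covered the variance model, array weights, a replicate block, dim probe sets, the choice of probe set, scaling, arrays left out and a test against 1.2-fold. The members and lists were chosen with earlier results of these data known. Named genes were the members, all their probe sets, the 2 largest changes past the test in each list, the 3 nearest genes in pattern and 3 neighbours on each side of the cluster; every other gene named was chosen after its values were seen. The number of arrays limits the precision.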

Additional observations from a re-analysis of the deposited data

How the results depend on the processing

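The changes of Mt1 (0.60 to 1.22), Mt2 (1.38 to 1.94) and Mt3 (0.74 to 0.80) kept their direction and call under each of the 19 alternatives, with limma adjusted p up to 0.0159, 0.000743 and 0.00746. From 4 to 6 members passed. Slc39a14 turned to -0.077 when its probe sets, which disagree, were averaged. Mtf1 passed with array weights (0.36), the filter on dim probe sets (0.39) and median centring (0.41). Slc30a1 passed after quantile normalization (-0.53), cyclic loess (-0.55) and quantile normalization without Des-/- replicate 1 (-0.45). Slc39a8 did not pass in a test against 1.2-fold (-0.51), and ranged from -0.59 to -0.44 with 1 array left out. With 1 array left out, Mtf1 ranged from 0.28 to 0.48, Slc30a1 from -0.47 to -0.21 and Slc39a14 from 0.68 to 0.78. The cause of these shifts was not tested, beyond the fewer arrays in each of the latter. The count of all genes past the test was 3869, with 8414 under array weights, 1222 against 1.2-fold and 2068 to 5814 with 1 array left out. Of the genes in the 7 lists 39 passed, 66 under array weights, 16 against 1.2-fold and 24 to 56 with 1 array left out.

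Same-numbered arrays of the groups correlated at 0.25, 0.31 and -0.30 in their deviations from group means. These values show no pairing by number, but 3 arrays in each group are too few to exclude it. With the replicate number as a block, 5 members and 4278 genes passed, with Mtf1 at an adjusted p = 0.0639 and Slc30a1 at 0.0701. Low readings without detection calls limit Slc39a8 and Mt3.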

Other observations

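Copper, which metallothioneins also bind, was covered by a list of 15 genes. Of these, 3 rose and 1 fell (median log2 change 0.34), against 15.2% and 6.05% of all genes. After quantile normalization 2 rose and 3 fell (median 0.08), against 12.0% and 10.4% of all genes. Cox11, an assembly factor of cytochrome oxidase, rose by 0.62 ± 0.14 (SE; limma adjusted p = 0.0156) and the metalloreductase Steap3 fell by 0.57 on the log2 scale (0.0378). Averaged over its 2 probe sets, Cox11 changed by 0.28 and did not pass (limma adjusted p = 0.0682). The copper importer Slc31a1 stood at 0.14 ± 0.16 and the copper pump Atp7a at 0.36 ± 0.21, and neither passed. Without Des-/- replicate 1, 8 rose and 2 fell; without Des-/- replicate 2, 1 rose and 1 fell; without Des-/- replicate 3, TNFαDes-/- replicate 1 or TNFαDes-/- replicate 3, 1 rose and 0 fell.

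Of 16 genes induced by hypoxia, a further stimulus of metallothioneins, 4 rose and 2 fell (median 0.19), against 15.2% and 6.05% of all genes. After quantile normalization 3 rose and 4 fell (median -0.16), against 12.0% and 10.4% of all genes. The glucose transporter Slc2a1 rose by 1.14 ± 0.17 (SE; limma adjusted p = 0.00266), while Ankrd37, above the array median on 2 of 6 arrays, fell by 0.79 on the log2 scale (0.027). Vegfa stood at -0.24 and did not pass. With 1 array left out, 2 to 5 rose and 0 to 2 fell: 2 rose without Des-/- replicate 3, TNFαDes-/- replicate 1 or TNFαDes-/- replicate 3, and 0 fell without TNFαDes-/- replicate 2 or TNFαDes-/- replicate 3. Without Des-/- replicate 2, Des-/- replicate 3 or TNFαDes-/- replicate 1, 1 fell.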
